A study of Mus musculus with 36 samples.

Results

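Motor neurons kept for 1 day in medium from astrocytes that over-express wild-type SOD1 were compared with motor neurons kept for 1 day in medium from non-transgenic astrocytes. The comparison takes every library labelled with either medium and this day, 6 of each, which makes 12 of the 36 libraries in the series. The cells were mouse motor neurons made from embryonic stem (ES) cells of the transgenic line Hlxb9-GFP1Tmj. In these cells the HB9 promoter, that of the motor neuron gene Mnx1, drives eGFP, or eGFP together with the surface protein CD2. Cells were collected with a magnetic column through CD2.

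The control medium is called NTg and the other wtSOD1 below. Astrocytes were grown from newborn pups, from either the cord or the cortex, and which tissue served for a given library is not stated in the labels. The pups came from crosses of SOD1 transgenic with non-transgenic mice, with no strain or copy number given. After 2 weeks the astrocyte cultures were described as 95% GFAP-positive with 5% CD11b-positive microglia, which were then shaken off. Each medium, NTg included, carried glucose (4.5 mg/ml), GDNF (0.5 ng/ml), BDNF (1 ng/ml), CNTF (10 ng/ml), penicillin and streptomycin. The transgene was in the astrocytes, and the neurons of both groups were of the same reporter background. Libraries carry an experiment number from 1 to 6, so each wtSOD1 library has an NTg partner. NTg or wtSOD1 followed by a number names the library of that experiment. The labels do not say that separate ES cell differentiations or medium batches stand behind the numbers. A p-value therefore measures the spread between libraries, part of which may be technical. That spread was estimated over all 36 libraries of the series, unless some were left out, and not from the 12 compared alone.

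SOD1 is a cytosolic enzyme that removes superoxide, and dominant mutations in it cause a familial form of amyotrophic lateral sclerosis. Medium from wild-type over-expressing astrocytes serves as a control for the presence of extra SOD1 protein, as distinct from mutant protein. Several gene programs can report on what a neuron meets in its medium. Sterol synthesis is run by SREBP transcription factors, which the INSIG proteins hold in the endoplasmic reticulum when sterols are plentiful. When sterols fall, SREBP moves to the nucleus and raises the enzymes from acetyl-CoA to cholesterol, and INSIG1 itself. LXR factors act in the opposite situation and raise the exporters ABCA1 and ABCG1. Immediate early genes such as Fos and Npas4 answer calcium entry and synaptic activity within minutes to hours. ATF4 raises amino acid transporters and biosynthetic enzymes, and interferons act through a complex of which IRF9 is the DNA-binding part.

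A pair of libraries stood apart before any comparison. The 12 libraries held 4386946 to 88931151 reads, the smallest being NTg 6 and the largest wtSOD1 4, while the other 10 held 10454900 to 20690180. In spite of its depth wtSOD1 4 had reads for 16829 genes, within the range of the rest (16465 to 17524). Of 13567 genes, 289 (2.13%) in NTg 6 and 195 (1.44%) in wtSOD1 4 lay more than 2-fold from their group mates, against 28 to 83 in each of the other 10. NTg 6 carried more RNA of other cell types: its 14 oligodendrocyte markers summed to 303 CPM, the read count relative to the library's scaled total, against 98.4 to 103 in the other NTg libraries and 93.1 to 101 in the wtSOD1 libraries. Its 14 microglia markers summed to 100 CPM against 10.3 to 14.5 in the other 11 libraries, with Trem2 at 0 in all 12. Each result below is therefore also given, where it matters, without these 2 libraries. In bulk RNA, fewer cells of a type and less RNA per cell cannot be told apart.

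The cultures had the markers of motor neurons in both media. Mnx1 was at 87.9 to 135 CPM in NTg and 97.5 to 118 CPM in wtSOD1, and Isl1, a motor neuron homeobox gene, at 136 to 190 and 142 to 164 CPM. Chat, which makes acetylcholine, was at 182 to 247 and 208 to 238 CPM, with Slc18a3 lying inside the same locus. The summed level of 24 motor neuron genes was 3300 to 3660 CPM in NTg and 3270 to 3620 CPM in wtSOD1. Proliferation genes were present too, with Mki67 at 108 to 152 and 111 to 152 CPM. Gfap was at 0 in 4 of 6 NTg and 4 of 6 wtSOD1 libraries and reached 1.18 CPM in NTg 6, and Aif1, a microglial gene, stayed at or below 0.616 CPM. None of Mnx1, Isl1, Chat, Mki67 or Col1a1 passed the test between media. The log2 differences of the 24 motor neuron genes ran from -0.55 to 0.12, with 13 below 0 and 11 above, and none of the 24 passed. The gene at -0.55 was lower in 5 of 6 pairs (adjusted p = 0.343). Without NTg 6 and wtSOD1 4 it was at -0.48 (0.743), so the motor neuron genes are not shown to be equal between media. The neurons' own Sod1 was read at 47.9, 47.5, 47.4, 38.2, 43.8 and 36.8 CPM in NTg 1 to 6. In wtSOD1 1 to 6 it was read at 51.0, 42.0, 47.7, 35.9, 41.0 and 42.2 CPM, so the groups overlapped throughout (log2 difference -0.03 ± 0.08, estimate ± SE, adjusted p = 1.0). Ccs, the copper chaperone of SOD1, differed by 0.01 ± 0.07 (adjusted p = 1.0). These are mouse gene counts of the neurons and say nothing of SOD1 protein in the medium.

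What did wtSOD1 medium change in 1 day? Of 15207 genes tested, 4 passed an adjusted p of 0.05 (0.0263%), 1 upwards (0.00658%) and 3 downwards (0.0197%), with 867 genes at an unadjusted p below 0.05. The 3 that fell were Scd2, a stearoyl-CoA desaturase, Sqle, the squalene epoxidase of cholesterol synthesis, and Insig1, the sterol-regulated anchor of SREBP. The gene that rose was Irf9, the DNA-binding part of the interferon-activated complex. Scd2 fell by 16.5%, Sqle fell by 16.8% and Insig1 fell by 14.5%, and Irf9 was 31.0% higher. With experiment as a block 9 genes passed (0.0592%), adding Idh1, Nsdhl and Idi1 downwards and Fos and Npas4 upwards. With a separate block for each day 56 passed (0.368%), 32 upwards and 24 downwards, and only 3 of them differed by more than 1.5-fold. Leaving out NTg 6 and wtSOD1 4 gave 5 genes without a block (0.0328%), 4 of them downwards (0.0262%), and 51 with the block within day (0.334%). All 56 genes kept their sign without the 2 libraries and 32 of them were called again. That refit shares its libraries with the fit that chose these genes, so the kept signs are not independent support. The count without a block was 0 when experiment 3 was left out (832 genes at an unadjusted p below 0.05), 7 without NTg 6, 2 without NTg 1, NTg 4, wtSOD1 4, experiment 4 or experiment 5, and 1 without experiment 6. Below, "called" means an adjusted p below 0.05 from edgeR's quasi-likelihood test, in the fit without a block unless the block within day is named.

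**Figure D1:**
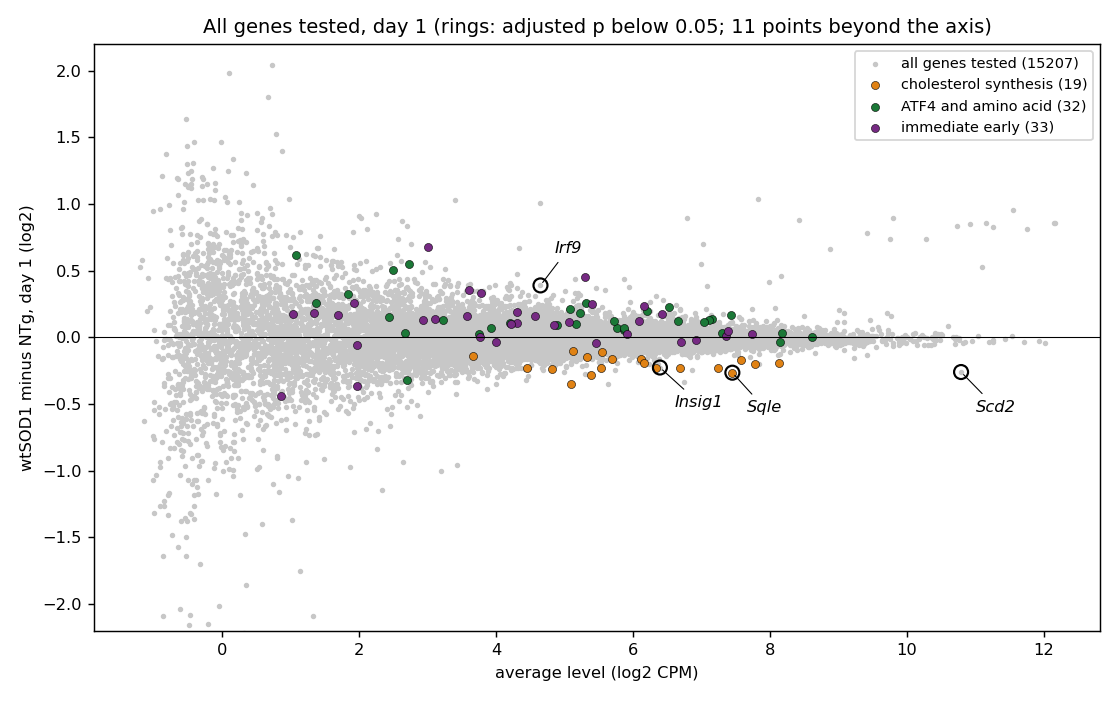
Each point is 1 of the 15207 genes tested, with its average level (log2 CPM) on the x axis and the wtSOD1 minus NTg difference at day 1 (log2) on the y axis, and rings mark the 4 called genes. Cholesterol synthesis genes all lie below 0, while most ATF4 and immediate early genes lie above it.

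Cholesterol synthesis genes had small negative differences in wtSOD1 medium. Of the 20 listed genes 19 could be tested, all 19 had an estimate below 0 and all 19 were lower in at least 5 of 6 pairs, a rule that 1742 of all 15207 genes meet (11.5%). The list's median log2 difference was -0.20, and 0.00 over all genes tested. Only Sqle was called without a block (fell, 0.0197% of all genes), but 9 were called with the block within day (fell, 0.158% of all genes), and 8 without the 2 libraries (fell, 0.131% of all genes). Sqle, Fdps, Nsdhl, Fdft1, Lss, Idi1 and Cyp51 were among those 9. The median was -0.19 without NTg 6 and wtSOD1 4, and from -0.11 to -0.27 within single experiments. All 11 oligodendrocyte markers that could be tested also had an estimate below 0 with a median of -0.40, 6 were lower in at least 5 of 6 pairs (54.5%) and none was called. Without the 2 libraries 9 of the 11 were below 0, with a median of -0.08. Their part in the sterol result was not tested. The groups did not overlap for 3 of the 19, Sqle, Idi1 and Dhcr7, the last a reductase of the final steps, and for 6 of the 19 without the 2 libraries, where 141 of all genes (0.927%) are so separated, 73 of them below NTg (0.48%). All 19 estimates stayed below 0 in every alternative run, including each library left out in turn. The list was drawn up with earlier results of these data known, so its count is not independent evidence of its direction. Hmgcs1, the remaining listed gene, is given 0 reads in all 36 libraries of the series, although its neighbours in the pathway are well expressed.

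**Figure D2:**
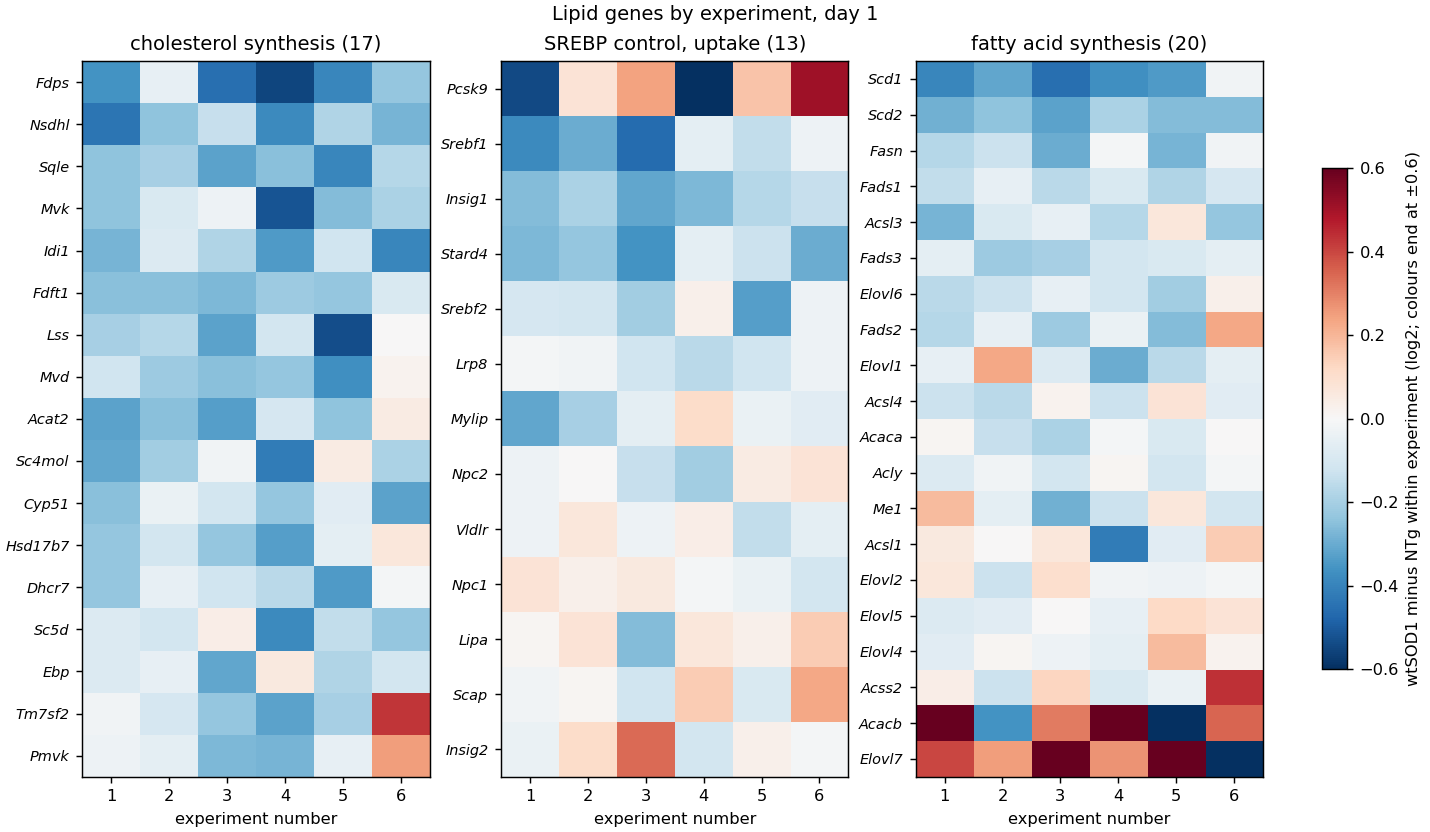
Each cell is the wtSOD1 minus NTg difference (log2) of 1 gene (row) in 1 experiment (column, 1 to 6) at day 1, for 17 of the cholesterol synthesis genes, 13 genes of SREBP control and lipoprotein uptake and 20 fatty acid synthesis genes, with blue for lower in wtSOD1. Cholesterol synthesis is blue in nearly all cells, and the other lists are blue only for some genes.

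Sqle stood at 208, 192, 219, 193, 216 and 202 CPM in NTg 1 to 6. It stood at 176, 167, 176, 162, 165 and 179 CPM in wtSOD1 1 to 6, so that every wtSOD1 library lay below every NTg library. The log2 difference was -0.26 ± 0.04 (adjusted p = 0.00213, 2.8e-05 with the block within day). Among all genes, 41 (0.27%) had groups that do not overlap, 20 of them below NTg (0.132%). Idi1, which isomerises the isoprenoid unit, stood at 98.9, 95.3, 98.5, 98.4, 96.3 and 106 CPM in NTg 1 to 6. In wtSOD1 1 to 6 it stood at 81.3, 90.0, 86.8, 77.6, 88.3 and 81.1 CPM, again without overlap. Its difference of -0.23 ± 0.05 had an adjusted p of 0.0901 without a block and 0.00275 with the block within day. Its highest NTg and lowest wtSOD1 values came from the 2 libraries that stand apart, and without them the difference was -0.19 (adjusted p = 0.373, 0.0579 with the block within day). Nsdhl, a demethylating enzyme late in the pathway, went from 47.7 ± 2.92 (mean ± SD, n = 6) to 39.3 ± 2.73 CPM (-0.28 ± 0.06, adjusted p = 0.0611, 0.00067 with the block within day).

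Fdps, which makes farnesyl pyrophosphate, had the lowest estimate of the list, -0.35 ± 0.08 (adjusted p = 0.178, 0.00062 with the block within day), with 37.2 to 44.8 CPM in NTg and 25.3 to 40.7 CPM in wtSOD1. Its lowest value was that of wtSOD1 4. Lss, which closes the sterol rings, was at -0.23 ± 0.07 (0.414 and 0.0202), and without the 2 libraries its adjusted p with the block within day was 0.00111. The list's smallest differences were those of Pmvk (-0.10 ± 0.08) and Tm7sf2 (-0.11 ± 0.09), neither called in these fits. For Fdft1, squalene synthase, whose locus overlaps Ctsb in the annotation, the difference was -0.23 ± 0.07 (0.343 and 0.00062).

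**Figure D3:**
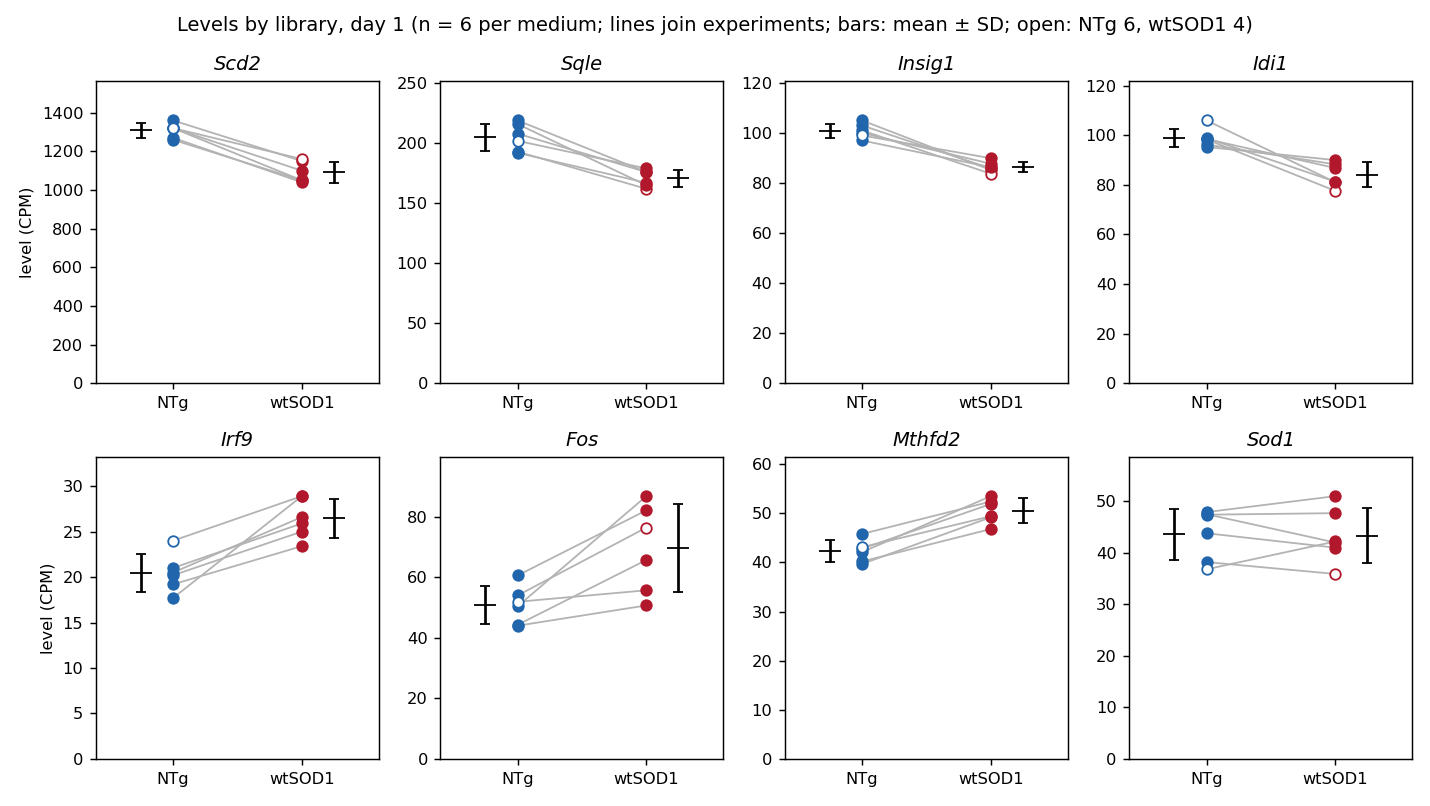
Levels (CPM, y axis from 0) of 8 genes in the 6 NTg and 6 wtSOD1 libraries of day 1, with lines joining libraries of 1 experiment, black bars for mean ± SD and open circles for NTg 6 and wtSOD1 4. Scd2, Sqle, Insig1 and Idi1 are lower in every experiment, with groups that do not overlap, Irf9, Fos and Mthfd2 are higher in every experiment, and Sod1 lies in the same range in both media.

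Control of SREBP and uptake of lipoproteins moved less uniformly. Of 14 genes, Insig1 was called without a block (fell, 0.0197% of all genes) and 2 genes, Insig1 among them, with the block within day (fell, 0.158%), and the list's median was -0.08. Insig1 stood at 103, 100, 105, 101, 97.0 and 99.0 CPM in NTg 1 to 6 and at 85.8, 87.7, 85.2, 83.7, 86.3 and 89.9 CPM in wtSOD1 1 to 6. The groups did not overlap and had SDs of 2.94 and 2.13 CPM. Its difference was -0.23 ± 0.04 (adjusted p = 0.0437, 0.00167 with the block within day). Without NTg 6 and wtSOD1 4 it was -0.22 and no longer called (adjusted p = 0.156), though it was with the block within day (0.00737). Srebf1 was lower in 6 of 6 pairs without being called (-0.25 ± 0.07, adjusted p = 0.397, 0.12 with the block within day). The LXR list of 8 genes holds the receptors as well as exporters. None of its genes was called, 4 had an estimate below 0 and 4 above, and the median was 0.01. Abcg1, an exporter, was lower in 5 of 6 pairs (-0.28 ± 0.11, adjusted p = 0.654, 0.352 with the block within day). Abca1, a cholesterol exporter, stood at 113 ± 19.7 and 112 ± 16.4 CPM (-0.01 ± 0.10, adjusted p = 1.0).

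In the fatty acid list, the desaturases led. Scd2 was the most abundant gene called, at 1270, 1360, 1320, 1320, 1260 and 1320 CPM in NTg 1 to 6. In wtSOD1 1 to 6 it was at 1040, 1150, 1050, 1160, 1050 and 1100 CPM, every library below every NTg library. The difference was -0.26 ± 0.04 (adjusted p = 0.00213, 2.59e-07 with the block within day). Scd1, which makes the same monounsaturated fatty acids, was at 69.6, 73.7, 74.4, 71.6, 60.7 and 51.4 CPM in NTg 1 to 6 and at 53.1, 59.5, 54.3, 55.3, 47.9 and 50.6 CPM in wtSOD1 1 to 6. NTg 6 lies within the wtSOD1 range and the other 5 NTg libraries lie above it. With all libraries the difference of Scd1 was -0.34 ± 0.08 (adjusted p = 0.0914, 0.000344 with the block within day), and without the 2 libraries it was called (-0.39, 0.0295). Scd4 was also called only without them (-0.48, 0.0295, against -0.35 and 0.343 with them). The Scd genes are close paralogs that lie side by side, and the sources used here do not state how shared reads were assigned. With the block within day Scd2, Scd1, Fads1 and Fasn were called of the 20 listed genes, all downwards (0.158% of all genes), the last 2 at -0.12 ± 0.03 and -0.15 ± 0.05 without a block (adjusted p = 0.217 and 0.42). Fads1 is a desaturase for polyunsaturated fatty acids and Fasn the fatty acid synthase. Idh1, which supplies cytosolic NADPH and is in none of the lists, was at 250 to 304 CPM in NTg and 223 to 248 CPM in wtSOD1 without overlap (-0.20 ± 0.04, adjusted p = 0.0901, 0.000576 with the block within day). Of the 24 genes called downwards with the block within day, 15 are members of the 4 lipid lists. These are cholesterol synthesis (19 tested), SREBP control and uptake (14), LXR receptors and exporters (8) and fatty acid synthesis (20). These lists hold 61 of the 15207 genes tested (0.401%) and were drawn up with earlier results of these data known.

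The sequence before the transcription start is shown for 3 genes that fell together with the block within day: Insig1, Idi1 and Nsdhl. RefSeq promoters of build GRCm38.p6 were matched by gene identifier for 15 of the 20 cholesterol synthesis genes and 11737 of the genes tested. The 250 bases before the start are at chr5:28071162-28071411 (plus strand) for Insig1, chr13:8885356-8885605 (plus strand) for Idi1 and chrX:72918271-72918520 (plus strand) for Nsdhl. Capitals mark matches, on either strand, to CCAAT (the letters bound by NF-Y, a partner of SREBP at sterol genes), CACGTG (an E-box), TGACGT (a core of the cAMP response element) or TGATGNAA (a C/EBP-ATF element).
Insig1: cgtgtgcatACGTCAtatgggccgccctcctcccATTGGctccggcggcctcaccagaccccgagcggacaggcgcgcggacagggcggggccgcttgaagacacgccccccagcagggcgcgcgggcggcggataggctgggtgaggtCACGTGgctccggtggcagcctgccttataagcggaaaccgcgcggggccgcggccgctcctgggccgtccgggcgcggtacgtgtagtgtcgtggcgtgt
Idi1: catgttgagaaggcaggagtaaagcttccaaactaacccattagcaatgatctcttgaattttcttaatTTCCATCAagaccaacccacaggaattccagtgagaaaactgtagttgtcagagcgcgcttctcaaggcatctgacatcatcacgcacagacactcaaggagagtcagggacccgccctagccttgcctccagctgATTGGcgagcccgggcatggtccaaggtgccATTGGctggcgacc
Nsdhl: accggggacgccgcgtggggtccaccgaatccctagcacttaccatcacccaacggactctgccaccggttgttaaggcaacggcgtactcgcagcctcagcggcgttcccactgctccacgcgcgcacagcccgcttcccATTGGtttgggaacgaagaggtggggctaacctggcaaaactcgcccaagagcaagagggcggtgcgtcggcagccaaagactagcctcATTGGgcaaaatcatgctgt
A CCAAT was found in all 3 of these promoters. Counted by gene, with a match in any of its promoters, it was found for 14 of the 15 cholesterol synthesis genes (93.3%). Among all 27025 genes with a promoter it was found for 10133 (37.5%), and for 40.5% of the 11737 tested. A sterol regulatory element searched as TCACNCCAC was found in 1 of the 15, against 331 of 27025 (1.22%). Such matches are descriptions of letters in this window and show no binding.

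Immediate early genes, which neurons switch on when active, were called in part. Of 33 tested, 26 had an estimate above 0, 13 were higher in at least 5 of 6 pairs (12% of all genes are), and the median was 0.12. None was called without a block, Fos and Npas4 were called with a block (rose, 0.0197% of all genes), and Fos, Npas4, Fosl2, Per1 and Nr4a1 with the block within day, all upwards (0.21% of all genes). Fos, a subunit of the AP-1 factor, stood at 44.0, 44.3, 60.6, 54.0, 50.4 and 51.9 CPM in NTg 1 to 6. It stood at 50.7, 65.7, 82.1, 76.4, 86.8 and 55.7 CPM in wtSOD1 1 to 6. Each wtSOD1 library exceeded its own partner, although the groups overlapped, and the difference was 0.45 ± 0.10 (adjusted p = 0.0901, 5.28e-05 with the block within day). Npas4, an activity-dependent factor of neurons, stood at 8.27, 8.76, 11.8, 11.5, 12 and 13.9 CPM in NTg 1 to 6 and at 11.7, 15.8, 17.2, 19.1, 23.7 and 17.0 CPM in wtSOD1 1 to 6. It was higher in 6 of 6 pairs, by 0.68 ± 0.16 (adjusted p = 0.178, 0.000576 with the block within day). Fosl2 was at 0.24 ± 0.07 (0.319 and 0.0028), Per1, a clock gene with a cAMP-responsive promoter, at 0.25 ± 0.07 (0.347 and 0.00924) and the nuclear receptor Nr4a1 at 0.34 ± 0.12 (0.642 and 0.0234).

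NTg 6 also stands out in this group. Fosb was at 31.1 CPM there against 0.342 to 2.58 CPM in the other NTg libraries and 0.971 to 8.08 CPM in wtSOD1, and Klf4 at 8.49 against 1.26 to 1.5 CPM. The list's median difference was -0.07 in experiment 6 and 0.08 to 0.31 in the others, and 0.15 without the 2 libraries. Without them Fos, Npas4, Fosl2, Nr4a1 and Fosb were called upwards with the block within day (0.203% of all genes), and Per1 was not (adjusted p = 0.125). For Fosb the estimate without a block changed sign, from -0.44 with all libraries to 1.19 without the 2 (adjusted p = 0.852). The promoters of Fos (chr12:85473640-85473889, plus strand) and Npas4 (chr19:4989972-4990221, minus strand) are shown because these were the only listed immediate early genes called with the simple block. Capitals mark TGACGT on either strand.
Fos: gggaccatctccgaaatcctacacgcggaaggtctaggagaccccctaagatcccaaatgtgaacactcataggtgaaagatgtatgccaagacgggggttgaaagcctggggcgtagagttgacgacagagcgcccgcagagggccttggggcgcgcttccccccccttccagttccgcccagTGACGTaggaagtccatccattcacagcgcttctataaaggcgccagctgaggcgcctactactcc
Npas4: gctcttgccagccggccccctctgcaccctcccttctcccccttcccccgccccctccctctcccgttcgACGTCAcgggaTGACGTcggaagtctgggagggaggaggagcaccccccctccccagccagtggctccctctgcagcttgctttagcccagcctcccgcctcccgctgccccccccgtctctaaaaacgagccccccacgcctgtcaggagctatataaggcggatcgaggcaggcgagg
Counted by gene as before, these letters were found for 14 of 27 immediate early genes with a promoter (51.9%). The share was 7.29% of all 27025 such genes and 11% of the 11737 tested. Other genes called upwards with the block within day, named after their values were seen, include Pnoc, a neuropeptide precursor, Atp1b1, a sodium pump subunit, Cplx2, a complexin of vesicle release, Slc2a3, the neuronal glucose transporter, and Nptx1, a synaptic pentraxin. With the 2 libraries left out, Pnoc and Atp1b1 were called again with that block, and Cplx2 (adjusted p = 0.059), Slc2a3 (0.179) and Nptx1 (0.2) were not. Pnoc had 44.4 to 54.4 CPM in NTg and 58.9 to 64.7 CPM in wtSOD1 without overlap (0.37 ± 0.16, adjusted p = 0.756, 3.69e-06 with the block within day). The synaptic vesicle list as a whole had a median of 0.05 and the ion channel list of 0.00. Cplx2 was the only gene of either called in these fits, upwards with the block within day (0.21% of all genes).

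Most genes of the ATF4 response, the programme of amino acid supply, had small positive differences. Of 32 tested, 30 had an estimate above 0, 20 were higher in at least 5 of 6 pairs (12% of all genes are) and the median was 0.12, with 0.07 to 0.20 in single experiments and 0.15 without the 2 libraries. In the other direction, 2 genes of the list were lower in at least 5 of 6 pairs (11.5% of all genes are), and the lowest estimate was -0.32. No gene of the list was called without a block, and Mthfd2, Psat1 and Slc7a5 were called upwards with the block within day (0.21% of all genes). Mthfd2, a mitochondrial folate enzyme, stood at 42.1, 40.2, 45.8, 39.7, 42.8 and 43.1 CPM in NTg 1 to 6 and at 53.5, 46.8, 52.4, 49.2, 51.9 and 49.4 CPM in wtSOD1 1 to 6. Every wtSOD1 library lay above every NTg library (0.26 ± 0.06, adjusted p = 0.178, 0.00529 with the block within day). Psat1, an enzyme of serine synthesis, was separated as well, though narrowly, at 138 to 148 and 148 to 180 CPM (0.17 ± 0.09, 0.89 and 0.00508). Slc7a5, a carrier of large neutral amino acids, was at 81.3 to 106 and 104 to 117 CPM (0.23 ± 0.06, 0.319 and 0.0234), and was not called with that block without the 2 libraries (0.158). Sesn2 and Trib3, both ATF4 targets, also had groups that do not overlap, wtSOD1 being above NTg (0.138% of all genes), and were not called. Of 20 tRNA synthetases, many of them ATF4 targets, 17 had an estimate above 0, as 48.7% of all genes did. Eprs was called upwards with the block within day (0.21% of all genes). Its difference was 0.12 ± 0.03 without a block (adjusted p = 0.339, 0.0226 with it). The unfolded protein response and heat shock lists had medians of -0.02 and -0.01 and no called gene.

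**Figure D4:**
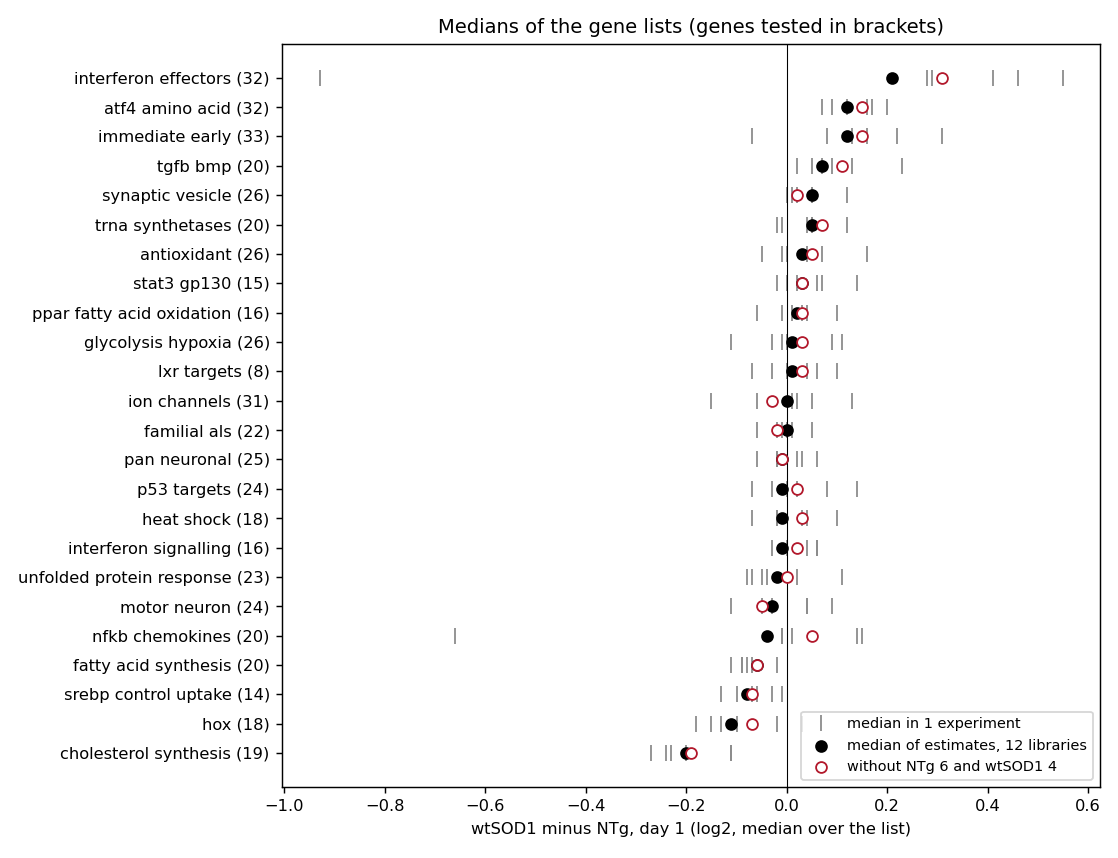
Median wtSOD1 minus NTg difference at day 1 (log2, x axis) of 24 gene lists (rows, genes tested in brackets), with filled circles for all 12 libraries, open circles without NTg 6 and wtSOD1 4 and grey ticks for each experiment. Cholesterol synthesis lies at -0.20 with every tick below 0, and interferon effectors spread from -0.93 in experiment 6 to 0.55.

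Irf9 was the gene called upwards in the fit without a block. It stood at 20.5, 20.2, 19.2, 17.7, 21.0 and 24.0 CPM in NTg 1 to 6 and at 26.6, 25, 23.4, 28.9, 25.9 and 28.9 CPM in wtSOD1 1 to 6. NTg 6 was the highest of the NTg libraries and lay above wtSOD1 3, the only overlap. The difference was 0.39 ± 0.07 (adjusted p = 0.023, higher in 6 of 6 pairs), and 0.39 without the 2 libraries (0.0295). The rest of the interferon signalling list, 15 further genes, held no called gene, and the list's median was -0.01. Of 32 interferon-induced effector genes 21 had an estimate above 0 with a median of 0.21, and none was called without a block. Ifih1, a sensor of double-stranded RNA, was called upwards with the block within day (0.21% of all genes). Its difference was 0.83 ± 0.21 (adjusted p = 0.217, 0.0332 with that block), from levels of 0.401 to 2.59 CPM in NTg and 2.45 to 3.65 CPM in wtSOD1.

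The interferon effectors differed between experiments. Their median was 0.28 to 0.55 in experiments 1 to 5 and -0.93 in experiment 6. NTg 6 had more of them: Usp18, which restrains interferon signalling, was at 10.1 CPM there and had a median of 2.49 CPM over the 6 NTg libraries, and Rsad2, an antiviral enzyme, was at 3.77 CPM against 0.0572 to 0.547 CPM in the other NTg libraries. The microglia and oligodendrocyte markers given above were raised in the same library, and their part in this was not tested. Without NTg 6 and wtSOD1 4, 26 of 32 were above 0, the median was 0.31 and 5 had groups that do not overlap with wtSOD1 above NTg (0.447% of all genes). With the block within day Ifih1, Trim25 and Parp14 were then called upwards (0.203% of all genes). These 3 were chosen for their values, as were Usp18 and Rsad2. The chemokine and NF-kB list had a median of -0.04 with all libraries and 0.05 without the 2, with no called gene.

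Some further genes passed only with the block within day. Hoxc4, a positional gene of the cervical and brachial cord, was lower in 6 of 6 pairs (-0.26 ± 0.10, adjusted p = 0.642 and 0.0234, and 0.0505 with the block without the 2 libraries), and 15 of 18 tested Hox genes had an estimate below 0 with a median of -0.11. Tardbp, which encodes the ALS protein TDP-43, was lower in 5 of 6 pairs (-0.13 ± 0.04, 0.488 and 0.0403) and was not called without the 2 libraries (0.279). Tardbp overlaps Masp2 in the annotation, as Atp1b1 does Nme7 and Srebf1 does Rai1, and reads of such pairs may be shared. Tardbp was the only one of 22 familial ALS genes called with the block within day (fell, 0.158% of all genes), and the list's median was 0.00. Pnp, a purine nucleoside phosphorylase, was at 28.8 to 33.4 CPM in NTg and 34.7 to 46.0 CPM in wtSOD1 (0.29 ± 0.06, 0.0904 and 0.00713). Pnp2 is a near-identical copy with an estimate of 0.38 ± 0.10 (0.284 and 0.0525), and reads may be split between the copies. Ifi27l1 and Ifi27l2a overlap in the annotation and had the same estimate, 0.36 ± 0.09 for the first (0.206 and 0.0234), so they cannot be told apart. The motor neuron, general neuron, antioxidant, p53, STAT3, hypoxia and TGF-beta lists held no called gene except Slc2a3 in the hypoxia and glycolysis list. Slc2a3 was called upwards with the block within day (0.21% of all genes). The medians of these lists lay between -0.03 and 0.07.

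Was the day 1 difference still there on day 3? The change from day 1 to day 3 was tested as an interaction on all genes, and 3 passed (0.0197%): Abca1, Abcg1 and Idi1. Idi1 was at -0.23 ± 0.05 on day 1 and 0.16 ± 0.05 on day 3, a shift of 0.39 (adjusted p = 0.0178, 0.149 without the 2 libraries). Abca1 and Abcg1, both LXR-driven exporters, shifted the other way. Abca1 was at -0.01 ± 0.10 on day 1 and -0.77 ± 0.09 on day 3 (shift -0.76, adjusted p = 0.0146) and Abcg1 at -0.28 ± 0.11 and -1.15 ± 0.10 (shift -0.87, 0.00598), and these were the 2 genes called without the 2 libraries (0.0131% of all genes, adjusted p = 0.043 and 0.00234). The cholesterol synthesis list had a median of -0.20 on day 1 and 0.04 on day 3. With the block within day 19 genes passed the interaction (0.125%), 9 of them upwards (0.0592%), and 8 of those 9 were of the 19 cholesterol synthesis genes. The remaining one was Insig1 (shift 0.28, 0.0194 with that block and 0.225 without a block), named after its value was seen. Scd2 had no such shift in the test: it was at -0.26 ± 0.04 on day 1 and -0.35 ± 0.04 on day 3 (shift -0.09, adjusted p = 1.0, 0.719 with the block within day). Scd1 was at -0.34 ± 0.08 and -0.62 ± 0.07 (1.0 and 0.108). For Irf9 the estimates were 0.39 ± 0.07 and 0.04 ± 0.07, and for Fos 0.45 ± 0.10 and 0.07 ± 0.11, and neither shift was called (adjusted p = 1.0 each, 0.291 and 0.139 with the block within day). Fosl2, at 0.24 ± 0.07 and -0.10 ± 0.07, was called with that block (0.00553) and not without it (0.812).

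**Figure D5:**
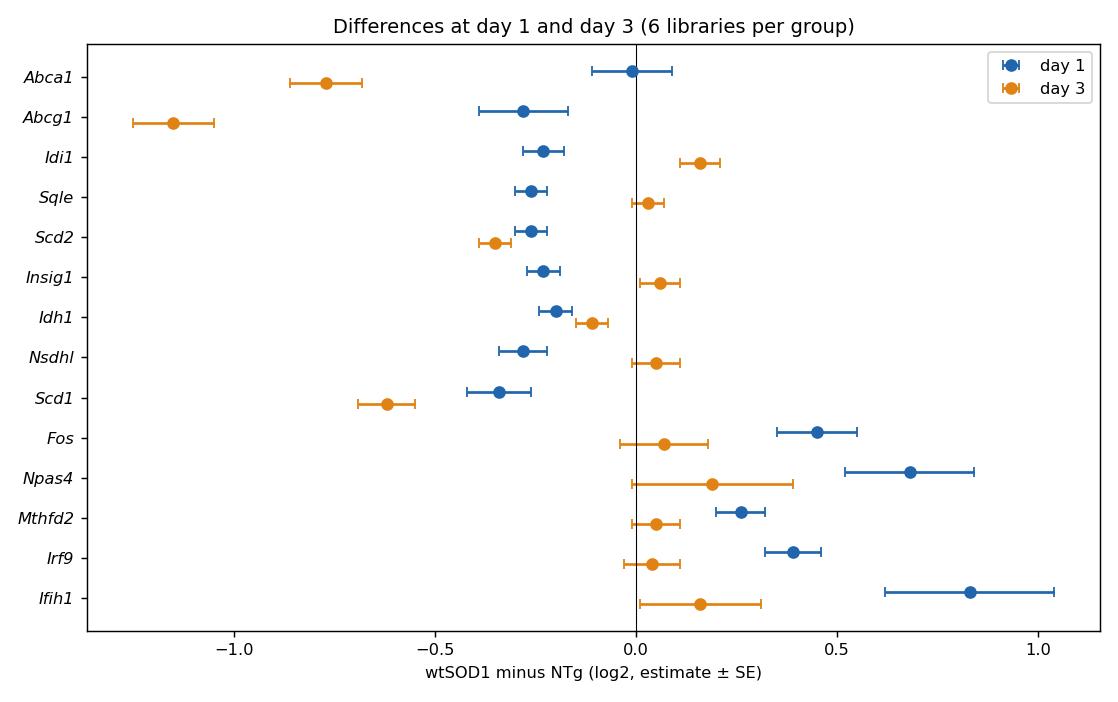
Estimated wtSOD1 minus NTg difference (log2, x axis, bars ± SE, 6 libraries per group) of 14 genes (rows) on day 1 (blue) and day 3 (orange). Abca1 and Abcg1 lie near or just below 0 on day 1 and far below it on day 3, Idi1 and Sqle lie below 0 on day 1 only, and Scd2 lies below 0 on both days.

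A direct test of mSOD1 against wtSOD1 medium on day 1, mSOD1 being the G93A mutant protein, called 153 genes (1.01%), 82 higher and 71 lower in mSOD1 (0.467%). It shares the wtSOD1 libraries with the comparison above, so values are set side by side and not as independent support. Irf9 was higher still in mSOD1 medium, by 0.61 over wtSOD1 (adjusted p = 3.73e-07), and its estimate against NTg was 1.00 there and 0.39 in wtSOD1. The interferon effectors had a median of 0.89 for mSOD1 against NTg and 0.21 for wtSOD1 against NTg, and 17 of 32 were called higher in mSOD1 than in wtSOD1 (0.539% of all genes). Several sterol genes were also higher in mSOD1 than in wtSOD1 medium. Sqle was 0.19 higher in mSOD1 than in wtSOD1 medium (adjusted p = 0.0127) and at -0.07 against NTg there. Scd2 (0.19, 0.0128), Nsdhl (0.28, 0.00524) and Fdps (0.34, 0.037) were likewise higher in mSOD1. Of the 19 cholesterol synthesis genes 5 were called so (0.539% of all genes), whereas Insig1 was not (0.04, 0.805). Without NTg 6 and wtSOD1 4, Sqle, Scd2 and Nsdhl stayed called and Fdps did not (adjusted p = 0.176). Only 2 of the 19 were then called higher, against 65 of all 15260 genes. In the immediate early list 4 of 33 genes were called lower in mSOD1 than in wtSOD1 medium (0.467% of all genes), with a median of -0.09, and in the ATF4 list 4 of 32, with a median of -0.19. With NTg 6 and wtSOD1 4 left out, 2 and 3 were called lower (0.197% of all genes). The called genes include Fos at -0.73 (1.24e-05), Npas4 at -1.18 (2.78e-05), Nr4a1 at -0.56 (0.0123) and Mthfd2 at -0.43 (3.27e-05), and of these 4 named genes Nr4a1 was lost without the 2 libraries (0.0627). Their estimates for mSOD1 against NTg were -0.27, -0.50, -0.22 and -0.17. Without NTg 6 and wtSOD1 4 this comparison called 95 genes (0.623%), without wtSOD1 4 alone 84, without experiment 2 96 and without experiment 4 48, and with the block within day 577 (3.79%).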

How the data were processed

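RNA of 36 libraries was sequenced, 12 of which make the comparison. Each deposited file gives 2 values per gene. The first is the read count, which the authors made with TopHat 1.3.3 on mm9, per the submitters' processing notes; the sources used here do not name the counting program, annotation or strand setting. The second is a log2-like transformed value that the authors made (DESeq is listed by the submitters), per the file headers. Counts were the basis of all results, and the transformed values served one alternative.

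The counts of 21761 genes (1798 without a read in any library, 7 without a symbol) were fitted with edgeR 4.0.16 in R 4.3.3 (TMM scaling, filterByExpr, robust quasi-likelihood F-test). All 36 libraries entered as 6 group means with 30 residual degrees of freedom, so that the groups share 1 estimate of the spread. P-values were adjusted by Benjamini-Hochberg over 15207 genes, with a threshold of 0.05. Adjusted p-values in the text come from this test, CPM values use TMM-scaled library sizes, and a standard error is the log2 difference divided by the square root of F. The self-test on simulated counts of 15207 genes recovered 47.8% of genes changed 1.2-fold, 92.5% of those changed 1.5-fold and 100% of those changed 2-fold, with 6 false calls. The changed genes were drawn from those averaging 1 or more on the log2 CPM scale, so recovery at lower levels was not tested. No experiment effect was simulated. Depth ran from 4386946 to 88931151 reads, with the fewest in NTg 6.

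Every library has an experiment number in its labels, which pairs the samples. Deviations of same-numbered NTg and wtSOD1 libraries from their group means correlated at 0.301, 0.155, 0.127, 0.152, 0.0597 and 0.0643 in experiments 1 to 6 (mean 0.143, and -0.0274 for different numbers). The best match was not always the partner: for wtSOD1 1 to 6 it was NTg 1, 1, 5, 4, 5 and 4. Alternatives included the experiment as a block, across days or within each day, leaving out libraries, other scalings and filters, limma 3.58.1 and DESeq2 1.42.0.

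The members and the 33 gene lists were chosen with earlier results of these data known. Genes were named by a rule: those called, up to 12 per direction with the lowest p among genes averaging 1 or more on the log2 CPM scale whose sign agreed in 5 or 6 of the 6 pairs, those called without NTg 6 and wtSOD1 4, the 6 with the largest estimates, up to 6 per list and a fixed set (Sod1, Ccs, Mnx1, Isl1, Chat, Gfap, Aif1, Col1a1, Mki67). Other genes were named after their values were seen, and some genes that the rule gives are not reported here. Promoters are RefSeq entries of GRCm38.p6, used for their letters only, since the counts rest on mm9.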

Additional observations from a re-analysis of the deposited data

Results flagged for a closer look

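Among the named genes, 72 groups of 6 libraries (36 genes) were checked for a library lying farther from its nearest neighbour than Dixon's critical value allows for the group's range (on the log2 scale), which chance gives in about 1 in 20 groups. In NTg 6, Gpr37l1 was at 5.19 CPM against 0.153 CPM in the next library, Gfap at 1.18 against 0.0922 CPM and Idi1 at 106 against 98.9 CPM. NTg 3 was the lowest for Ifih1, at 0.401 against 1.59 CPM, and for Nsdhl, at 42.2 against 47.2 CPM. In wtSOD1 4, Tmem30c was at 95.3 against 0.922 CPM. In wtSOD1 5, Elane was at 1.46 against 0.121 CPM and Cfd at 1.46 against 0 CPM, and in NTg 4 Cfd was at 0.0922 against 0 CPM. With the rest of its group at 0 CPM, any level of Cfd above 0 passes this check, and 0.0922 CPM is near the floor.

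Several genes on both sides of Tmem30c in annotation order were above the other wtSOD1 libraries in the same library. On one side, Nit2 in wtSOD1 4 was at 111 CPM against 17.0 to 23.4 CPM in the other wtSOD1 libraries. Tbc1d23 was at 160 against 48.4 to 54.7 CPM and Tomm70a at 341 against 255 to 286 CPM. Tfg, the next gene on that side, was at 133 CPM against 123 to 138 CPM. On the other side Filip1l and 2610528E23Rik, whose counts are nearly the same, were at 13900 CPM against 5200 to 13500 CPM, Col8a1 at 46.2 against 41.3 to 58.6 CPM, Dcbld2 at 145 against 144 to 163 CPM and St3gal6 at 10.7 against 5.49 to 6.52 CPM.

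The wtSOD1 minus NTg difference changed between days, by the interaction test, for Abca1 (-0.76), Abcg1 (-0.87) and Idi1 (0.39).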

How the results depend on the processing

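The day 1 comparison called 4 genes. It called 9 with the replicate block, 56 with the replicate block within day, 1 with only the 12 libraries compared, 21 with these and the block, 2 with limma on the transformed values and 17 with DESeq2. Without NTg 6 and wtSOD1 4 it called 11 with the block and 51 with the block within day, a combination chosen after seeing the data. Leaving out single libraries or experiments gave 0 to 7 genes. The interaction called 3 genes, 19 with the block within day, 5 and 38 without the 2 libraries with the block and the block within day, and 6 with limma-voom. Leaving out libraries gave 0 (without experiment 3 or 5, with 388 genes at an unadjusted p below 0.05 in each) to 4, and 1 without wtSOD1 4 or experiment 6. The mSOD1 against wtSOD1 comparison called 153 genes, 234 with the block, 577 with the block within day, 65 with only the libraries compared, 95 without the 2 libraries, 386 without them and with the block within day, 97 with limma-voom, and 48 to 174 with libraries left out. The cause of these shifts was not tested.

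Of the named genes' alternative values, 2067 kept their direction and side of the threshold, 137 passed it newly, 40 lost it and 58 changed sign. Those that changed sign belong to genes not called. Without the 2 libraries Tmem30c was at -0.14, -0.12 with the block and -0.13 with the block within day, and -0.08 without wtSOD1 4. In the same 3 fits Gpr37l1 was at 0.59, 0.72 and 0.90, Gfap at 0.10, 0.18 and 0.47 (0.02 with the block and all libraries), Chat at -0.05, -0.06 and -0.07 and Ccs at -0.02 in each. With limma-voom Chat was at -0.02, Ccs at -0.02 and Col1a1 at -0.06. Col1a1 was at -0.02 and Mki67 at 0.00 without the 2 libraries and with the block within day, and Sod1 at 0.01 without them and with the block. With libraries left out, the values ran from -0.08 to 5.31 for Tmem30c, -1.63 to 4.81 for Cfd, -0.08 to 0.03 for Sod1, -0.04 to 0.05 for Ccs and Chat, -1.89 to 2.16 for Gfap, -0.09 to 0.18 for Col1a1 and -0.09 to 0.03 for Mki67. Differences near 1.2-fold were recovered in fewer than all simulated cases, so an uncalled gene of that size is not shown to be equal between media.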

Other observations

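A set of 22 abundant genes, chosen after seeing the data (average log2 CPM of at least 6.5 and an estimate of at least 0.35), had a median difference of 0.82, and 0.79 without NTg 6 and wtSOD1 4. The cutoff on the estimate fixed the sign of the first median in advance. It includes Filip1l, Lars2, Gphn, Camk1d and Jarid2. None was called (lowest adjusted p = 0.81, 3 at an unadjusted p below 0.05). Together they took 0.703, 3.17, 4.28, 2.11, 4.0 and 4.81% of CPM in NTg 1 to 6, and 3.72, 3.76, 4.38, 8.94, 3.64 and 9.12% in wtSOD1 1 to 6. The share was lowest in NTg 1 and highest in wtSOD1 4 and 6. Filip1l and 2610528E23Rik, whose counts are nearly the same, both meet the cutoffs, so these shares may count the same reads more than once.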
